A study of Mus musculus with 4 samples.

Results

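Long peaks found in both immunoprecipitates of HOXA5 from mouse embryonic lung are described here. A peak of the first replicate was joined with every peak of the second that it overlapped by at least 1 bp, chains of such peaks were merged, and a merged region was kept where a member was longer than 1000 bp. The rule kept 532 of 2175 shared regions. The other 1643 are called shorter regions. Length and overlap chose the members, so length, enrichment, background and the agreement of the replicates are given as descriptions without a test, and only positions in the genome were tested.

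Lungs of E15.5 mouse embryos with genotype Hoxa5FLAG/FLAG, in which both alleles of Hoxa5 encode a FLAG-tagged protein, were analysed by chromatin immunoprecipitation and sequencing. The tissue was fixed in 1% formaldehyde for 10 min, sheared to 200 to 500 bp, and 20.0 µg of chromatin was incubated with a FLAG antibody, with libraries made from 2 ng of DNA. Both immunoprecipitates and both inputs carry the same tagged genotype, although their titles read "wt". The 2 immunoprecipitate peak lists were used, no untagged lung and no input was analysed here, and nothing in the labels tells if the 2 replicates are different litters, pools or parts of 1 chromatin preparation, so their agreement may be technical.

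HOXA5 is a homeodomain transcription factor that is needed in the mesenchyme of the developing lung for normal branching, airway formation and cartilage of the trachea. A factor that binds a short motif usually gives a narrow peak about as wide as the sheared fragments. Broad peaks are known from clustered binding and from chromatin marks, and also from tandem repeats, segmental duplications and satellite sequence, where reads from many copies can pile up on the few copies that an assembly holds.

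The sequences at hand were windows of 250 bases before the annotated starts of genes, from RefSeq on GRCm38.p6, the same assembly as the mm10 build of the peak lists. A long region overlapped 6 of these windows, 3 of them over all 250 bases and the others over 13 (Gm34735), 61 (Gm52481) and 100 (Gm40237) bases, and a shorter region overlapped 41. In 5 of the 6 windows some run of 15 bases occurred more than once, and in 3 (Gm34735, Gm40237 and Gm46074) such runs covered at least 50% of the window, which includes bases outside the long region. Of the 41 windows overlapped by shorter regions, 4 (9.76%) held a recurring run and 0 were covered to 50%. Among all 32851 windows the shares were 6.13% and 0.24%. Of the 4 windows printed, the first 3 show how the repeats look and the fourth, Hoxa2, shows a window of a Hox gene without one. Each is written 5′ to 3′ on the strand of its gene, with capitals for bases in a recurring run of 15 (first 3) or for the matches to TGATNNAT and TGACAG (Hoxa2).
Gm40237, chr4:118547156-118547405, plus strand: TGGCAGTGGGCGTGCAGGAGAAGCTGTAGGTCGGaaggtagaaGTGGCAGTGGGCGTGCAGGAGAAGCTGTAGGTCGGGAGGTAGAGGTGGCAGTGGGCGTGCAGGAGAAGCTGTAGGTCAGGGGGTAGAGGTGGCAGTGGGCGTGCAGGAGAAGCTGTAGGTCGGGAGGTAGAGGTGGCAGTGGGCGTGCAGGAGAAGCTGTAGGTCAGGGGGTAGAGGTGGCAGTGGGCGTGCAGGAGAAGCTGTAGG
Gm46074, chr8:20649078-20649327, plus strand: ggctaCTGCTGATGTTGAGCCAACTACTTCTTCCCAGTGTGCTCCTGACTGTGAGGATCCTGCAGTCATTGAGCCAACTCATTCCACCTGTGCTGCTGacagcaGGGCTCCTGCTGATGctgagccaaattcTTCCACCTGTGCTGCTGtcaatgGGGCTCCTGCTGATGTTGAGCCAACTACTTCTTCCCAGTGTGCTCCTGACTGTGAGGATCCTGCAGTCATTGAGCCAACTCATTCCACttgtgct
Gm36816, chr6:67008988-67009237, minus strand: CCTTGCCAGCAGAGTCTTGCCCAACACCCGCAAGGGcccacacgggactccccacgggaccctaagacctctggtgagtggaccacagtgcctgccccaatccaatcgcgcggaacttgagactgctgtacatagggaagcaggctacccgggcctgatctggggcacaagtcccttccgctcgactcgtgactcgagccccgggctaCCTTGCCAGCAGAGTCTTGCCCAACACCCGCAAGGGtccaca
Hoxa2, chr6:52164832-52165081, minus strand: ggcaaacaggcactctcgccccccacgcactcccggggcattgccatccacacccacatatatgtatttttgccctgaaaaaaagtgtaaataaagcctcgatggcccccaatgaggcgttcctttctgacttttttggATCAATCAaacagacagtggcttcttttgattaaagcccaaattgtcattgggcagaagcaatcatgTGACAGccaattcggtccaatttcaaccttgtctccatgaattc
In the Gm40237 window, of which the long region covers the last 100 bases, 96.4% of bases lay in recurring runs, with copies 44 bases apart. In the Gm46074 window the share was 85.2% with copies 156 bases apart, and in the Gm36816 window 28.8% with copies 208 bases apart. All 3 are genes named only by a Gm number, and the long regions over them (chr4:118547306-118548576, chr8:20646791-20649843 and chr6:67006624-67009496) had folds of 2.47 and 2.05, 4.03 and 4.61, and 3.34 and 3.15 in the first and second replicate. The Hoxa2 window held no recurring run. It held 1 match to TGATNNAT, the form of a site for PBX and HOX proteins together, 1 match to TGACAG, the core of MEIS and PKNOX sites, and 1 match to TAAT, the homeodomain core, on either strand. The matches do not overlap one another, and 7.68%, 15.9% and 54.9% of all windows held at least 1 match to these motifs. Of the other 5 windows, Gm46074 held 2 matches to TGACAG and Gm52481 held 1, and none matched TGATNNAT or TAAT. In the Hoxa2 window the TGATNNAT match lay 111 bases before the annotated start. It was 997 bp from the summit of the first replicate and 1008 bp from that of the second, so the summits lay inside the gene and not at these letters.

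Most of the long regions belonged to the shortest of 4 length classes. The longest member measured up to 2000 bp in 389 regions, over 2000 and up to 5000 bp in 116, over 5000 and up to 10000 bp in 20 and more in 7, with a median of 1512 bp and a maximum of 85688 bp. Members of both replicates exceeded 1000 bp in 329 regions, only that of the first in 95 and only that of the second in 108. A region was a single pair of peaks in 500 cases, and in 32 several peaks of one list met one or more of the other. Among shorter regions that happened in 1 of 1643. Of the peaks longer than 1000 bp, 435 of 465 (93.5%) in the first list and 447 of 499 (89.6%) in the second had a partner in the other list, where 51.2% and 77.6% of all peaks of these lists had one.

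Median enrichment was lower in the long regions than in the shorter ones. Fold enrichment is the authors' value at a peak's summit within its own list. Its median was 3.3 in the first replicate (range 1.28 to 16.7) and 3.29 in the second, against 4.93 and 3.8 in shorter regions. A first-replicate fold of at least 5 was found in 42 long regions (7.89%) and in 810 shorter ones (49.3%), and a fold of at least 10 in 3 and 241. At the limit itself the values were close. The 78 regions with a longest member over 900 and up to 1000 bp had median folds of 3.17 and 3.16, and the 62 long regions of up to 1100 bp had 3.19 and 3.18.

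The deposited fold and −log10 p of a peak together give the 2 numbers behind them. In all 4289 and 2832 rows they fitted, within a relative error of 0.0001, a whole number of fragments covering the summit and a Poisson background level, with 1 added to both before the ratio was taken. The background is what the peak caller expected at that place and has a lowest value in each list, 10.11 fragments in the first and 10.34 in the second, called the floor here. Median coverage at the summit was 59.5 and 62 fragments in long regions against 66 and 51 in shorter ones. The median background was 16.4 and 17.6 fragments against 12 in both replicates of the shorter regions. The coverage of long regions was thus lower than that of shorter ones in the first replicate and higher in the second, while their background was higher in both. The control behind the background is not given in the sources used here. Where a caller takes it from the immunoprecipitate around a peak, a long peak adds to its own background, and this and a high input level cannot be told apart.

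A background of at least 2 times the floor in both replicates, called raised, was found in 136 of the 532 long regions (25.6%, 95% Wilson interval 22 to 29.4). The share was 3.41% (56 regions) among shorter regions and 8.83% among all shared regions. It was 63 of 389 (16.2%) in regions of up to 2000 bp, 55 of 116 (47.4%) up to 5000 bp, 11 of 20 (55%) up to 10000 bp and 7 of 7 above that. Just inside and just outside the limit the shares were 12.9% and 6.41%. Raised regions had a lower median fold than the other 396 long ones, 2.84 against 3.41 in the first replicate. The background is the lower part of the fold ratio, so choosing a high background favours a low fold. Their median coverage at the summit was higher, 112 and 118 fragments against 51 and 55. The background was at the floor in both replicates in 11 of 532 long and 65 of 1643 shorter regions.

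**Figure D1:**
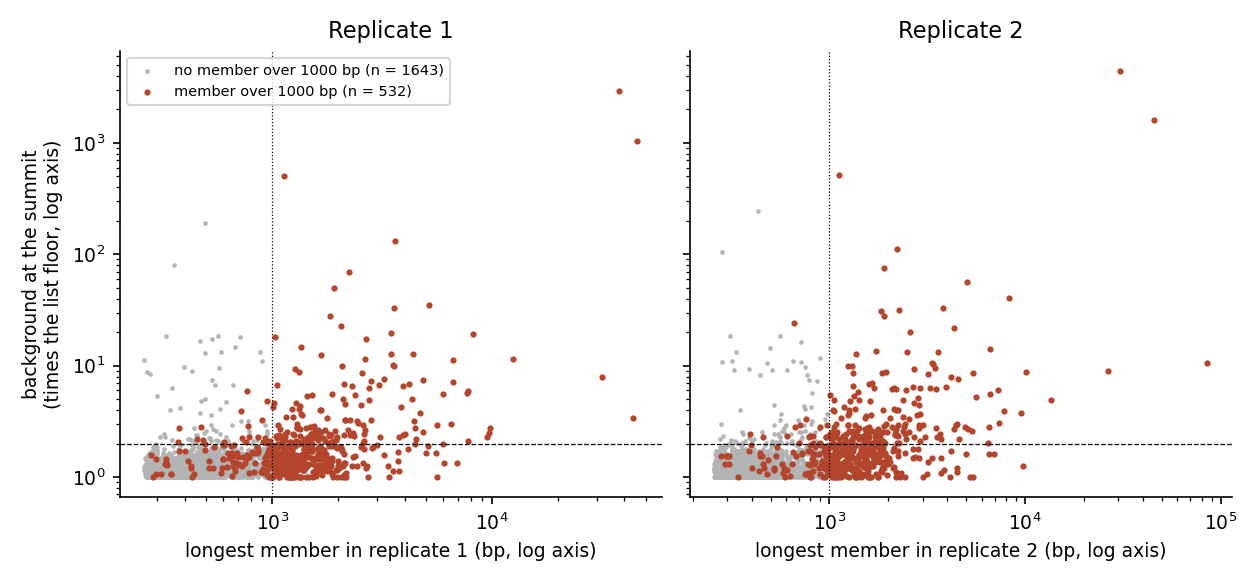
Background at the summit (times the floor of the list, log axis) against the longest member of each shared region in that replicate (bp, log axis), 1 panel per replicate. Red points are the 532 regions with a member over 1000 bp, grey points the other 1643, the dotted line marks 1000 bp and the dashed line 2 times the floor. Most points over 5000 bp lie above the dashed line.

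Background reached 5 times the floor in both replicates in 43 long regions and 50 times in 4. Both counts ask for a high value in the 2 replicates at once, so they do not show how closely the replicates agreed. The extremes described next were picked after their values were seen. The highest was chr9:3000330-3037967, where the assembled part of chromosome 9 begins, 311 kb from Alkbh8, which encodes a tRNA-modifying enzyme. The summit coverage was 84182 and 85477 fragments over a background of 29507 and 45696, so the fold was only 2.85 and 1.87, and both summits fell on the same base. An unplaced scaffold held a region of 45815 bp (68561 to 114375) with 36432 and 37111 fragments and folds of 3.46 and 2.25. Another scaffold held one of 1134 bp with 6571 and 6209 fragments over 5124 and 5356, a fold of 1.28 and 1.16. A high coverage and a fold near that of the other long regions or below it were thus found together at these 3 places.

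The fourth, chr17:13550728-13552972, lay inside the long non-coding RNA gene 2700054A10Rik. It had 2781 and 3969 fragments at folds of 3.93 and 3.45, and its summits were 2 bp apart. A region of 1906 bp in both lists (chr13:74528698-74530603) lay over the pseudogene Gm20590, 35.7 kb from the zinc finger gene Zfp825, with 2072 and 3019 fragments, folds of 4.14 and 3.86 and a background of 49.4 and 75.6 times the floor. Inside Akap9, which encodes an anchoring protein for protein kinase A at the Golgi and centrosome, a region at chr5:4052406-4054246 had 678 and 786 fragments and folds of 2.38 and 2.45. The background there was 28.1 and 31 times the floor. Inside Tmem267 (chr13:119597313-119600949) the peaks compared had 2017 fragments in the first replicate and 387 in the second. Their background was 130.4 and 28.1 times the floor. The second list held 2 peaks there, and its values are those of the peak with the higher fold. They therefore do not show that the replicates differed at this place.

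**Figure D2:**
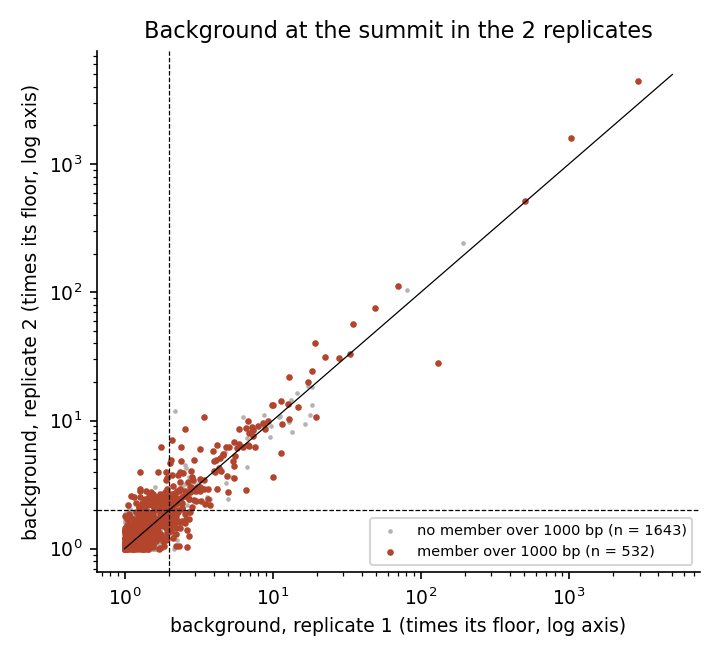
Background at the summit in the first replicate (x axis) and the second (y axis) of each shared region, both in times the floor of the list on log axes. Red points are regions with a member over 1000 bp, grey points the others, the solid line marks equal values and the dashed lines 2 times the floor. The 136 raised long regions lie in the upper right part, up to 2919 and 4420 times the floor.

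The longest region of all covered an array of 5S ribosomal RNA genes, which encode the small RNA of the large ribosomal subunit and stand in tandem in the mouse genome. It ran over chr8:123538082-123623769 as 1 peak of 85688 bp in the second replicate and 6 peaks of 980 to 43667 bp in the first. It held 48 of the 62 ribosomal RNA genes of the RefSeq table (77.4%). They were spaced a median of 1698 bp apart, with 45 of the 47 spacings between 1600 and 1800 bp. The fold was 1.75 in the second replicate and 1.79 to 2.61 over the 6 peaks of the first, with 56 to 156 fragments at the summits of the first and 193 in the second. The background was 10.6 times the floor in the second replicate and 2.11 to 8.58 times in the first. Each fold is the value at 1 summit and does not show how the signal ran along the array. The summits of the members compared were 29814 bp apart.

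**Figure D3:**
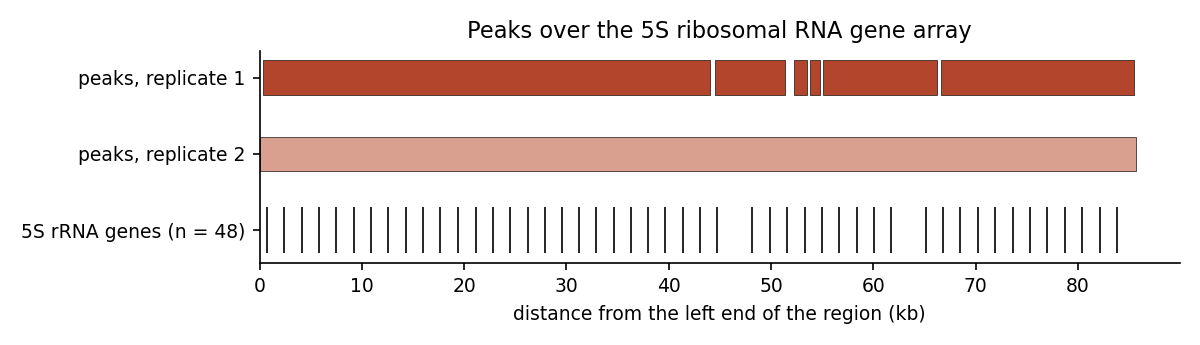
Peaks of the first replicate (6, top row) and the second (1, middle row) over the 5S ribosomal RNA array, with the 48 annotated ribosomal RNA genes as ticks in the bottom row. The x axis is the distance from the left end of the region in kb, and the second-replicate peak spans the array without a break.

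Other very long regions lay outside protein-coding genes. One of 31715 bp on the X chromosome (chrX:126746142-126777880), 41.9 kb from 4932411N23Rik, had folds of 2.43 and 2.41 with 197 and 226 fragments. One of 13523 bp covered Cyp2c53-ps, a pseudogene among cytochrome P450 genes on chromosome 19 (39256799 to 39270321), with 119 and 118 fragments and folds of 3.88 and 2.28. Near Apba2, which encodes a neuronal adaptor protein, 3 regions of 4351 to 12507 bp covered 23889 bp within 27.3 kb of chromosome 7, each raised. Beside Gm21119 on chromosome 8, 4 regions of 3053 to 10082 bp covered 26797 bp within 60.0 kb. Their folds in the first replicate ran from 3.85 to 4.53 over a background of 5.28 to 8.86 times the floor in either replicate. The Gm46074 sequence printed above belongs to the first of these 4.

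Summits of the replicates were farther apart in the long regions. They lay within 100 bp of each other in 220 of 532 (41.4%, 37.2 to 45.6), against 1361 of 1643 shorter regions (82.8%, 80.9 to 84.6) and 72.7% of all shared regions, with medians of 162 and 22 bp. A longer peak leaves more room for its summit, so part of that difference lies in the rule. Within the long regions the raised ones, although longer (median 2137 against 1436 bp), had the closer summits. Of the 136 raised regions 76 (55.9%) had summits within 100 bp, and of the other 396 regions 144 (36.4%), with medians of 84 and 181 bp.

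The edges showed the same order. Among the 124 raised regions made of a single pair, both edges agreed within 100 bp in 47 (37.9%) and the lengths within 10% in 66 (53.2%). Among the 376 other single pairs these were 48 (12.8%) and 105 (27.9%). Long regions with a high background therefore had the same outline in both replicates more often than those without, as a count that was not tested. Raised was defined by both replicates, so some agreement is part of the definition. Raised regions also had more fragments at the summit, with medians of 112 and 118 against 51 and 55. Both members exceeded 1000 bp in 110 of the 136 raised regions and in 219 of the other 396. A tolerance of 10% is also wider for longer peaks. What part these had in the closer summits and edges was not tested.

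**Figure D4:**
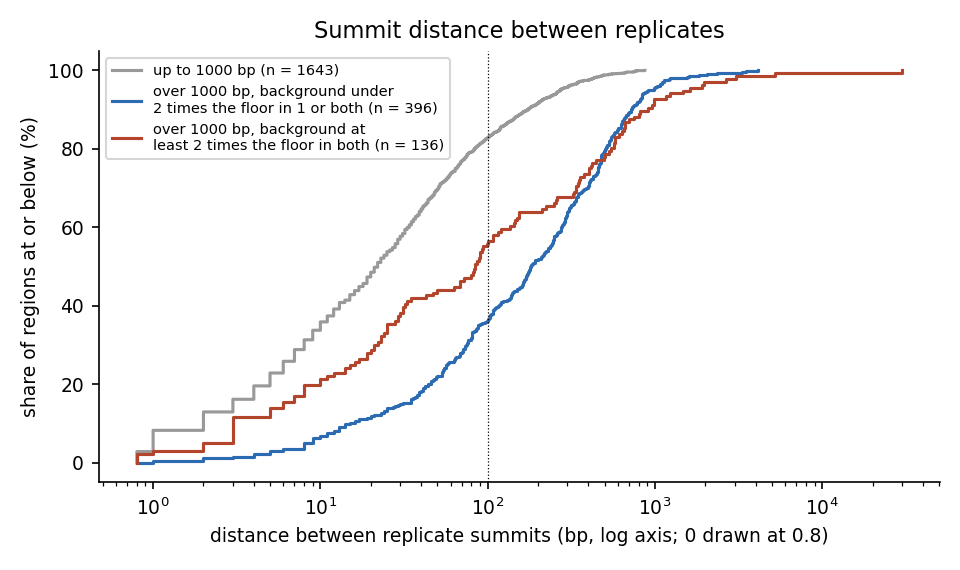
Cumulative share of regions (%) by the distance between the replicate summits (bp, log axis, with 0 drawn at 0.8) for 1643 shorter regions (grey), 396 long regions without raised background in both replicates (blue) and 136 long regions with it (red). At the dotted line, 100 bp, the curves stand at 82.8%, 36.4% and 55.9%.

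Position was tested by Fisher's exact test, two-sided, long against shorter regions, with Benjamini-Hochberg adjustment over 4 tests. Regions were placed at the summit of the highest-fold first-replicate peak, and exons, introns and untranslated parts could not be told apart with the table used. Long regions lay less often inside protein-coding genes, 164 of 523 on chromosomes (31.4%, 27.5 to 35.5) against 690 of 1634 (42.2%, 39.9 to 44.6), a difference of -10.9 points (adjusted exact p = 3.85e-05). With a limit of 2000 bp that difference was -10 points (adjusted exact p = 0.0532). They lay more often over 100 kb from any protein-coding gene, 164 of 523 (31.4%) against 418 of 1634 (25.6%, adjusted exact p = 0.0217). At 2000 bp this second difference turned to -0.388 points, and it missed the threshold with both members over 1000 bp (adjusted exact p = 0.276), in the second list alone (0.0624) and with genes of every kind (0.0567). Fisher's test treats regions as independent, which neighbours are not.

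Scaffolds outside the chromosomes held 9 of 532 long regions (1.69%) and 9 of 1643 shorter ones (0.548%, adjusted exact p = 0.0302), and 6 of those 9 long regions were raised. With regions of raised background left out of both sides the difference was 0.38 points (adjusted exact p = 0.395). The scaffold call was also lost with 1 region per 1 Mb (adjusted exact p = 0.0901), in the first list alone (0.0722) and at 2000 bp (0.0532). Clusters of 3 or more genes sharing a symbol stem within 250 kb held 47 long regions (8.99%) and 105 shorter ones (6.43%, adjusted exact p = 0.0498). That call was lost with 1 region counted per 1 Mb (adjusted exact p = 0.161), at 2000 bp (0.113) and without raised backgrounds (0.118). Within the long regions, raised ones lay on scaffolds in 6 of 136 cases (4.41%) and the others in 3 of 396 (0.758%, adjusted exact p = 0.0424), while the shares inside genes, 24.6% and 33.6%, did not pass the test (adjusted exact p = 0.127).

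The X chromosome held more of the long regions than of the shorter ones. It had 52 of 523 (9.94%, 7.66 to 12.8) against 31 of 1634 (1.9%, 1.34 to 2.68), a difference of 8.05 points (Fisher's exact test, two-sided, adjusted over 21 chromosomes, p = 7.44e-13). This comparison was added after the regions had been seen. The difference has 2 sides. The long share on X was the highest of any chromosome, followed by 7.65% on chromosome 6. The shorter share on X equalled the 1.9% on chromosome 19, and every other autosome had at least 3.37%. Neither share was set against chromosome length here. The Y chromosome had 8 (1.53%) against 4 (0.245%, adjusted exact p = 0.023), and the smallest adjusted exact p of the other chromosomes was 0.212. Since 6 of the 8 on Y stood within 78.7 kb, they are not independent, and no count with 1 region per 1 Mb is given for Y. The X share was 9.41% among the 393 chromosomal long regions that were not raised and 11.5% among the 130 raised ones. It stayed above that of the shorter regions in each of the 8 other settings tried, with differences of 4.35 to 8.77 points. The smallest was at a limit of 2000 bp, 7.91% against 3.57% (unadjusted exact p = 0.0191), and with 1 region per 1 Mb the shares were 8.21% and 2.92% (unadjusted exact p = 9.95e-05). The sex of the embryos is not given in the labels.

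**Figure D5:**
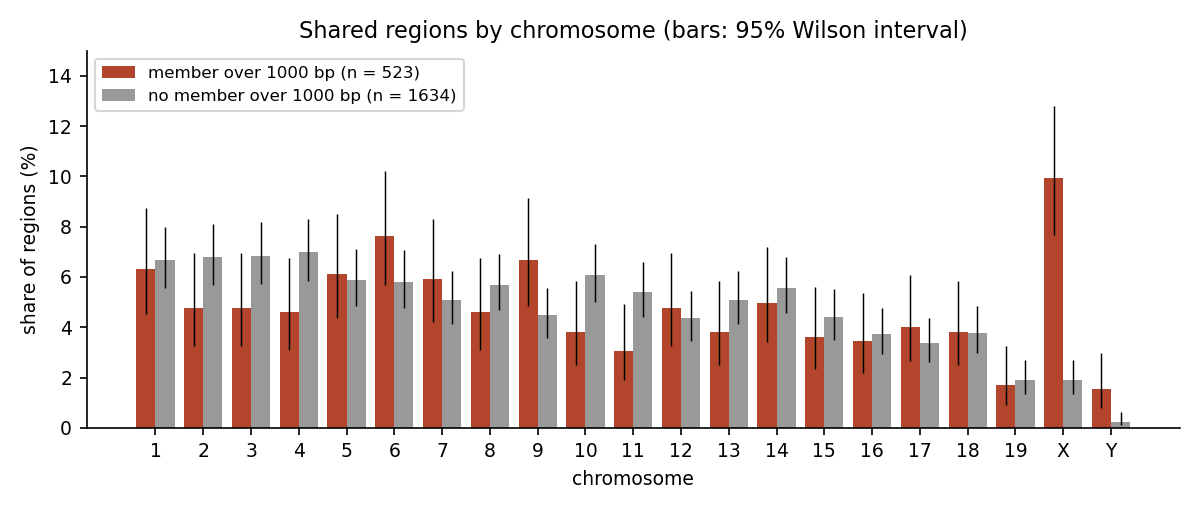
Share (%) of the 523 long (red) and 1634 shorter (grey) shared regions on each mouse chromosome (x axis), with 95% Wilson intervals as lines. On X the bars stand at 9.94% and 1.9%, and on Y at 1.53% and 0.245%.

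Several of the X and Y regions stood together near the ends. Beside Mid1, which encodes a ubiquitin ligase of microtubules and crosses the boundary of the pseudoautosomal region that X and Y share, 3 raised regions of 1268 to 8286 bp lay within 29.2 kb of chrX:169992647-170021888. Their first-replicate folds ran from 1.38 to 2.07 over backgrounds from 2.42 times the floor upward. Another 4, all raised, lay within 126 kb from chrX:170733203-170859490, toward Asmt, the gene of the last enzyme of melatonin synthesis. On Y, 6 of the 8 long regions stood within 78.7 kb (chrY:90721666-90800322) near Gm52481 and the pseudogene Mid1-ps1, 4 of them raised. The strongest there, chrY:90766690-90770175, had 354 and 392 fragments at 4.04- and 3.96-fold. The X and Y ends thus held regions of the same kind, with raised background in most.

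Of the 52 regions on X, 15 were raised and 37 were not. At chrX:135041155-135055831, over the long non-coding RNA gene 3632454L22Rik, 3 regions covered 14057 bp within 14.7 kb, with first-replicate folds of 2.59 to 3.59, and 2 of the 3 were raised. Near Mageb5 and Magea4, of the melanoma antigen family, and near Ssxb2 and Ssxb9, of the synovial sarcoma X family, the background lay at 1.3 to 1.88 times the floor. The Mageb5 region (chrX:91841161-91844242, 59.7 kb away) had 81 and 90 fragments at 4.11- and 4.67-fold, and the Magea4 region (chrX:72190348-72192320, 29.7 kb away) had 65 and 79 at 4.14- and 5-fold.

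The first 1 Mb of assembled sequence of the chromosomes, where the centromeric end of mouse chromosomes lies, held 12 of 515 long regions (2.33%) and 10 of 1630 shorter ones (0.613%). This window was chosen after the regions were seen and is given without a test. Besides the chromosome 9 region, it held regions near vomeronasal receptor genes or pseudogenes on chromosomes 4, 6 and 18 and near Sfi1, which encodes a centrosome protein, on chromosome 11. Near Vmn1r2 the fragments numbered 227 and 190 at folds of 1.52 and 1.44. Near Vmn1r238 they numbered 201 and 166 at 2.84- and 2-fold with summits 1 bp apart. The chromosome start also held unraised regions, among them chr9:3072961-3075000 with 62 and 51 fragments at 5.67- and 4.4-fold over a background of 10.1 and 10.8 fragments.

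Long regions near members of large gene families were counted within 100 kb over 28 families, without a test. Vomeronasal receptors, the pheromone receptors of the vomeronasal organ, were nearest to 11 long regions (2.1%) and 3 shorter ones (0.184%), and 7 of the 11 were raised. The longest of them, 4323 bp at chr7:12010648-12014970, 29.6 kb from Vmn1r77, had 136 and 110 fragments at 2.65- and 3.76-fold. Taste receptors had 3 (0.574%) and 1 (0.0612%), and olfactory receptors 4 (0.765%) and 5 (0.306%). The major urinary proteins and lipocalins had 2 (0.382%) and 0, and the X-linked amplified genes 6 (1.15%) and 3 (0.184%). None of these regions but the vomeronasal ones was raised. Zinc finger genes went the other way, with 3 long regions (0.574%) and 21 shorter ones (1.29%). So did NK cell receptors with 0 and 4 (0.245%), and ribosomal protein genes and pseudogenes with 2 (0.382%) and 8 (0.49%). Serpins and carboxylesterases had 0 and 2 (0.122%) each, and SPEER proteins, defensins and MRG receptors 0 and 1 (0.0612%) each. One region lay inside Sult2a3, which encodes a sulfotransferase (chr7:14086471-14088279), with 92 and 97 fragments at 3.94- and 4.97-fold.

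Within genes, long regions covered part of several genes whose proteins are known for tandem repeats. A long region overlapped 156 of the 21779 protein-coding genes (0.716%). In a list of 29 genes of repeat-unit proteins, written after the regions were seen, 9 had a long region and 0 had a shorter one. Since the list was written with the regions in view, its count is no support for anything. Flg, Flg2 and Hrnr encode filaggrin, its relative and hornerin, repeat proteins of the epidermal barrier. They stood side by side on chromosome 3 and were covered over 48.8%, 46.7% and 50.3% of their length by 4 regions of 3943 to 9818 bp. The Flg region (chr3:93282552-93292389) had 72 and 61 fragments at folds of 2.54 and 4.41 with summits 9 bp apart. The Hrnr region had 75 and 73 fragments at folds of 2.99 and 4.16.

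Ahnak2, which encodes a very large protein with a central repeat, was covered over 24.9% of its length, with 59 and 41 fragments at 4.13- and 3.7-fold and summits 4147 bp apart. Eppk1, the gene of the plakin-repeat protein epiplakin, was covered over 15.3%, with 216 and 228 fragments at 3.85- and 4.91-fold. Plin4, of a lipid droplet protein, was covered over 14.7%, with 35 and 41 fragments. Muc6 and Muc5b, of gel-forming mucins (Muc5b is made in airways), held regions of 1329 and 1153 bp. The summits in Muc6 fell on the same base, with 140 and 151 fragments. Background was raised in Eppk1, Muc6 and 1 of the Flg2 regions, and not in Ahnak2, Plin4, Muc5b, Flg and Hrnr.

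The 10 long regions of highest first-replicate fold mostly measured under 2000 bp and had a background near the floor. Most long regions were like this, with 389 of 532 up to 2000 bp and 396 without raised background. The background is the lower part of the fold, so a choice by fold favours a low background. The highest, chr14:21903555-21904862, lay 46950 bp from A430057M04Rik with 259 and 121 fragments, 16.7- and 7.57-fold, and summits 31 bp apart. One at chr9:51345087-51346204, inside the long non-coding RNA gene Gm39338 and 17040 bp from 1810046K07Rik, had 167 and 92 fragments at 11.9- and 4.4-fold. One inside Skap2, an adaptor protein gene beside the Hoxa cluster (chr6:51975807-51976856), had 162 and 79 fragments at 10.5- and 7.06-fold, with summits 5 bp apart. In these 3 the background was 1 to 1.95 times the floor.

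Lrmda, named for melanocyte differentiation, held 2 of the 10 highest, with 9.68- and 5.07-fold enrichment at chr14:22649603-22650853 and 7.18- and 4.71-fold at chr14:22759344-22760979. In 5 of the 10 only the first-replicate peak passed 1000 bp, and the second-replicate peak measured 399 to 606 bp. Klhdc4, which encodes a kelch-domain protein, was the exception in length. Its region of 5619 bp (chr8:121822063-121827681) covered 16.9% of the gene at the floor of both lists, with 105 and 122 fragments at 9.54- and 10.8-fold and summits 2362 bp apart. Its members measured 5619 and 5436 bp, the only one of the 10 above 2000 bp.

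Genes of lung development and signalling were looked up next. Of 347 genes on 14 lists of Hox genes, cofactors, signalling pathways and lung cell types, 10 (2.88%) were the nearest protein-coding gene within 100 kb of a long region, 11 regions in all, and 45 (13%) of a shorter region, 72 in all. Over all 21779 protein-coding genes the counts were 324 genes (1.49%) with 359 long regions and 1017 genes (4.67%) with 1216 shorter ones. The listed genes thus had a larger share than all genes in both classes, which was not tested. The lists of TALE cofactors, FGF and Wnt pathways, extracellular matrix, lung epithelium, mesenchyme regulators and smooth muscle had 0 long regions, and between 2 and 7 genes each with a shorter one. With 9 to 36 genes a list and a share of 1.49% over all genes, a count of 0 says nothing particular about them.

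Hoxa2, a neighbour of Hoxa5 in the HOXA cluster that patterns the hindbrain and second branchial arch, had the highest fold of the 11. Its region (chr6:52163758-52165306, 1549 and 1085 bp) covered 44.5% of the gene and its whole upstream window, printed above, with 90 and 59 fragments at 5.84- and 4.79-fold and summits 11 bp apart. Erg, an ETS factor of endothelium, had a region inside it (chr16:95509272-95510748) with 122 and 111 fragments at 4.23- and 3.79-fold and a background of 2.78 and 2.76 times the floor. Sox17, a factor of endoderm and endothelium, had one 63 kb away with 47 and 45 fragments at 3.3- and 4.06-fold. Thus the endothelial list had 2 regions, one of them raised.

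Smo encodes the membrane protein that passes on the hedgehog signal, a pathway of lung branching. Its region (chr6:29747901-29748933) had 430 and 625 fragments at folds of 2.32 and 2.47, summits 3 bp apart, and a background of 18.3 and 24.4 times the floor, the highest of the 11. Near Cdkn1a, the gene of the cell cycle inhibitor p21, were 2 regions, 2.27 and 6.66 kb away. In both the second replicate was higher, with 55 and 151 fragments at the nearer one and 61 and 208 at the other, and so was the background, 2.09 and 6.99 times the floor at the nearer one and 1.77 and 6.18 at the other. The folds, which set coverage against background, stayed between 2.08 and 3.29.

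The remaining 5 had folds between 2.15 and 3.06 in both replicates and 32 to 56 fragments. They lay inside Smad4, the shared mediator of BMP and TGF-beta signals (2.97- and 2.75-fold), inside Matn3, a cartilage matrix gene (2.99- and 3.06-fold), inside Sox5, a regulator of cartilage (2.79- and 2.7-fold), inside Cdk6, a cell cycle kinase gene (2.18- and 2.69-fold), and 32.9 kb from Neurod1, a neuronal factor (2.15- and 2.41-fold). Background was below 2 times the floor in all of these.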

How the data were processed

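Chromatin immunoprecipitates of FLAG-tagged HOXA5 were analysed as 2 peak lists, 1 per replicate, each called on its own library. The inputs were not analysed here. Peaks are on the mm10 build, and the submitters' processing notes name MACS3 3.0.1 among the tools, with Bowtie2 2.5.2, SAMtools 1.18, FastQC 0.12.1, Trim Galore, deepTools and bedtools 2.31.0. Which control MACS3 was given, with what settings, and if problem regions were masked is not given in the sources used here. The deposited fold enrichment is a ratio at the summit made by the authors' peak caller. Each row also holds a −log10 p and a −log10 q for the peak, from the same caller as run by the authors. The score deposited by the authors was derived from −log10 q and was not used. Peak names in the second list give a different replicate number from its label, which was followed.

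Lists were joined and placed on RefSeq genes of GRCm38.p6 in Python 3.11.15 with pandas 2.3.3, NumPy 2.4.6, SciPy 1.17.1 and statsmodels 0.14.6. Of 49943 genes on chromosomes, 340 placed below 3 Mb outside Y, where these chromosomes hold no assembled sequence, were left out, and 21779 of the 49603 used were protein-coding. Summit coverage and background were recovered by solving the peak caller's relation between fold and −log10 p, fragments plus 1 over background plus 1 and a Poisson tail, for a whole number of fragments. The step was tested on simulated data. The worst relative error was 1.91e-05 and 3.03e-05, and in 2 and 3 peaks a neighbouring whole number fitted too. Total depth is unknown. Wilson intervals at 95% and Fisher's exact tests cover counting error only and treat regions as independent. Where a region had several peaks in a list, its fold, summit and background are those of the highest-fold peak.

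Named genes are those nearest to the 10 longest regions, the 10 of best mean −log10 q rank and the 10 of highest first-replicate fold, up to 4 regions per family, every region whose nearest coding gene was on a list, and genes whose upstream window was overlapped. Genes named for raised background, for repeat-unit proteins or for standing in groups on a chromosome were chosen after their values were seen, and 1 of the repeat-unit genes is not reported here. The regions, the lists and the tests were chosen with earlier results of these data known. Alternatives changed the length limit, the overlap, the q threshold, the counting of neighbours, the replicate lists and the gene set. An alternative placement, at the middle of a region, left every printed value as it was.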

Additional observations from a re-analysis of the deposited data

How the results depend on the processing

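Limits and alternatives are given for differences in percentage points, long minus shorter regions, with Fisher's exact test and Benjamini-Hochberg adjusted p. With a limit of 2000 bp 143 regions were left, the lower share inside protein-coding genes was -10 points (adjusted exact p = 0.0532), the share over 100 kb from one turned to -0.388 (adjusted exact p = 1), scaffolds gave 2.11 (0.0532) and family clusters 4 (0.113), while the median first-replicate background was 23.8 fragments and the median fold 3.5. With both members over 1000 bp 329 regions were left, the share over 100 kb away was 2.96 (adjusted exact p = 0.276), the median background 18.2 and the median fold 3.47. With 1 region per 1 Mb, scaffolds gave 1.33 (adjusted exact p = 0.0901) and family clusters 2.31 (0.161). With genes of every kind the share over 100 kb away was 2.39 (adjusted exact p = 0.0567). With −log10 q of at least 5 in both replicates the median fold was 3.5. The replicate lists taken singly gave 0.878 to 1.36 for scaffolds (adjusted exact p = 0.0722 without replicate 2), 4.19 to 5.96 for the share over 100 kb away (0.0624 without replicate 1), and a median fold of 3.4 in the first list alone. Leaving out raised backgrounds, an alternative chosen after seeing the data, gave 0.38 for scaffolds (adjusted exact p = 0.395), 2.52 for family clusters (0.118), a median background of 14.6, a median fold of 3.41 and 36.4% of summits within 100 bp. Of the other alternatives, 42 kept their direction and their side of the threshold or moved within their spread. Placement at the middle of a region is counted among them. It gave the main values in every printed digit, so it is no separate check. In each of the remaining alternatives but the 2000-bp limit, the lower share inside protein-coding genes passed the test. The causes of these changes were not tested, although the 2000-bp limit also leaves fewer regions. No paired analysis was possible because both peak lists belong to 1 group and the inputs were not analysed here.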

Other observations

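Of the peaks longer than 1000 bp, 30 in the first list and 52 in the second had no partner in the other list. The longest measured 1772 bp in the first list and 3555 bp in the second. Their median fold was 2.86 and 3.04, against 3.43 and 3.39 for long peaks with a partner, and their median background was 15.3 and 13.4 fragments against 17.3 and 18.5.

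Another long region lay within 100 kb of 84 of the 532 (15.8%). Among the more numerous shorter regions, 379 of 1643 (23.1%) had another shorter region that near. Standing close together was thus not particular to the long regions. Groups of at least 3 long regions with gaps under 100 kb numbered 10, and those not described above stood on chromosome 9 near 4921528I07Rik (5382 bp covered within 78.4 kb, 1 of 3 raised) and inside Ulk4 (10455 bp within 47.3 kb, 0 of 3 raised).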
